A study of Homo sapiens with 6 samples.

Results

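The replication-dependent histone genes encode the linker histone H1 and the core histones H2A, H2B, H3 and H4 that package newly made DNA. They were taken as every row of the count table whose symbol is H2AC, H2BC, H3C or H4C followed by a number, or H1-1 to H1-6, and numbered 63 of 22077 rows. The rule used no measured value. RNA was sequenced from 3 cultures transfected with a plasmid that expresses transketolase (TKT), an enzyme of the pentose phosphate pathway, and from 3 cultures with the empty vector. The labels give the cell line as Hu7 for both groups and the genotype as over-expression or wt, while the study's methods name HCCLM3 and its results Huh7. HCCLM3 and Huh7 are both hepatocellular carcinoma lines. The plasmid pTSB02-GFP-PURO carried TKT, and cells were selected after transfection. The columns of the TKT cultures could be tied to their group, not to a sample, and the labels call every sample a replicate biosample. The study states in general that its experiments were repeated independently, but the sources do not describe how these 6 cultures were grown. P-values measure the spread between these samples, part of which may be technical.

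Replication-dependent histone mRNAs are made mainly in S phase, when DNA is copied. Most do not end in a poly(A) tail but in a short hairpin, the histone stem-loop, which the stem-loop binding protein SLBP holds and behind which the U7 small nuclear ribonucleoprotein directs the cut. Some of these genes are also known to yield longer polyadenylated transcripts in cells that have left the cycle. How RNA was selected for the libraries is not given in the sources used here. A level below can therefore be of the stem-loop form, of a polyadenylated form or of both, and these cannot be told apart.

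The stem-loops are shown because they define the class. A stem of 6 bases, a loop of 4 and the paired 6 bases were looked for in the 100 bases after the stop codon of GENCODE 29 transcripts (GRCh38), where 59 members were placed, leaving out 3 transcripts whose stop codon lies outside the member's RefSeq gene. H2AC18, H2AC19, H3C2 and H3C3 were not placed. Capitals mark stem and loop, with 5 flanking bases on each side.
H2BC21: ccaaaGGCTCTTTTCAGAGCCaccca
H2AC6: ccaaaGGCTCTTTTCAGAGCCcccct
H2BC5: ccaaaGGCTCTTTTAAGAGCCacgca
H3C6: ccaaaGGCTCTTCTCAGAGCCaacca
H4C8: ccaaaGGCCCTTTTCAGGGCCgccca
H4C14: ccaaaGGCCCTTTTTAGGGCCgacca
These lie at chr1:149886188-149886203 on the minus strand (H2BC21), chr6:26124669-26124684 on the plus strand (H2AC6), chr6:26158587-26158602 on the plus strand (H2BC5), chr6:26225596-26225611 on the plus strand (H3C6), chr6:26285131-26285146 on the minus strand (H4C8) and chr1:149833032-149833047 on the plus strand (H4C14).

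A stem-loop was found in 26 members, 22 to 56 bases after the stop codon, in 5 versions. The version of H2BC21 and H2AC6 was the most common, in 13 members of the H2A, H2B and H3 families. All 8 H4 genes with a stem-loop carried the GGCCC arm, in the version of H4C8 in 5 genes and that of H4C14 in 3, and the 18 other genes carried GGCTC. Of 25 members with at least 100 annotated bases after the stop codon, 23 had a stem-loop and H2AC11 and H2BC11 did not. The annotation gave 28 members no base after the stop codon, H1-2, H2BC12 and H2AC14 among them, so their ends could not be searched. A stem and loop of these lengths, of any sequence, occurred in 8.78% of 12241 other tested genes. A match of this form alone is therefore a description and does not show a histone stem-loop. The 5 versions themselves were not looked for in the other genes.

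Some annotated transcripts run on past the hairpin, by 1729 bases in H2BC21 and 1128 bases in H2AC6. The counts divided by FPKM (fragments per kilobase of gene, scaled to the reads of a library) imply the length over which each gene was counted, and this was 2232 bases for H2BC21, 1674 for H2AC6, 864 for H2BC5, 734 for H1-2 and 497 for H2BC12. It was at least 1000 bases in 15 members and under 600 bases in 40. The mean FPKM over 6 libraries had a median of 0.492 in 20 members with at least 100 annotated bases after the hairpin and 0.530 in the 39 other placed members. The counted length was long enough to hold these bases in H2BC21 and H2AC6, but not in all of the 20. H2BC9 has 1640 such bases but was counted over 464, and H4C5 has 1022 but was counted over 413. FPKM also falls as the counted length grows. The medians therefore do not compare the level of extended transcripts with that of transcripts ending at the hairpin.

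Promoter windows from RefSeq (GRCh38.p14) run from 250 bases before to 50 after the start and were found for 58 members, with none used here for H4C3. The motifs looked for on both strands were TATAAA (the TATA box), CCAAT (bound by NF-Y), the octamer ATTTGCAT (bound by OCT1) and GGTCCG (a part of the H4 element). Capitals mark every match, overlapping matches included, in the windows of H2BC21, the member with the smallest adjusted p below, of H2BC12, the most abundant member, and of H4C8 as an H4 gene.
H2BC21: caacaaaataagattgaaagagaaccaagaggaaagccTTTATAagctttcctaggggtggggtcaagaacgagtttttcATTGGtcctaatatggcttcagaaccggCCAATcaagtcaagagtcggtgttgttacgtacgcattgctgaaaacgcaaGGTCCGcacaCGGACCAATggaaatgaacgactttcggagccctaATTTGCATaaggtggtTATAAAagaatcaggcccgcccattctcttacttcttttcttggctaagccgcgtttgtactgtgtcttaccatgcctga
H2BC12: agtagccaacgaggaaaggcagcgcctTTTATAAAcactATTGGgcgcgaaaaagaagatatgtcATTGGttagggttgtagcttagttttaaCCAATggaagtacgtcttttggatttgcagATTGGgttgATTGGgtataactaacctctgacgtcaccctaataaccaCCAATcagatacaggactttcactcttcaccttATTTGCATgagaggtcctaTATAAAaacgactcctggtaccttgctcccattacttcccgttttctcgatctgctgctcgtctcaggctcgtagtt
H4C8: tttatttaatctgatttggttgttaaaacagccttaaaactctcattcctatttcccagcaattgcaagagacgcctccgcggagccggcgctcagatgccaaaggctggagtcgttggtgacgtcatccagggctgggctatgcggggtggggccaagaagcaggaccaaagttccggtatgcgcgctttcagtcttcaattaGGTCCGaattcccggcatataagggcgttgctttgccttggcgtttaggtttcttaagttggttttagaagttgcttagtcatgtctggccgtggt
These windows are chr1:149886633-149886932, chr6:27146809-27147108 and chr6:26285485-26285784, each on the minus strand. TATAAA stood in 63.8% of the members' windows, against 3264 of 27305 promoters of the same length. CCAAT stood in all 48 windows of H1, H2A, H2B and H3 genes and in 1 of 10 windows of H4 genes, against 35.7% of all promoters. The octamer was in 14 of 18 H2B windows and 10 of 15 H2A windows, and in 43.1% of members against 1.80% of all promoters. Windows of H2A and H2B genes that start close together on opposite strands overlap, and H3C4 has the window of H2AC7. The same match can so be counted for both genes, and the shares of every motif are not of separate promoters. GGTCCG was in 10 of 10 H4 windows, and in 22.4% of members against 11.2% of all promoters. The window of H2BC21 held matches to all 4 motifs, as did that of H2AC20, which covers much of the same DNA on the other strand.

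Libraries held 30148788 to 37096156 counts, of which the 63 members took 0.0237% to 0.0278%. TKT itself was at 9446 ± 89.6 CPM (counts relative to library totals adjusted with TMM factors, mean ± SD, n = 3) in the TKT cultures and 494 ± 22.9 in the controls, a log2 fold change of 4.26 (SE 0.04, adjusted p = 9.87e-26, edgeR). No culture of one group reached the other, and the exact two-sided permutation test gave p = 0.1, the smallest that 3 against 3 allow. Markers of hepatocytes and hepatocellular carcinoma were present, with AFP at 8643 CPM in TKT cultures and 8334 CPM in controls, and 11 of them summed to between 21438 and 21822 CPM with TKT and between 20907 and 21316 CPM in controls. Of 10 tested, FGB was higher (log2 fold change 0.50, adjusted p = 8.69e-10, edgeR) and HNF4A lower (−0.15, adjusted p = 0.00732, edgeR), and APOB was at or near 0 in both groups. Summed markers of fibroblasts and stellate cells lay between 1.81 and 3.08 CPM in TKT cultures and 1.91 and 2.51 CPM in controls, and those of endothelial cells between 15.4 and 19.4 and between 17.1 and 20.5 CPM. Summed markers of immune cells lay between 123 and 129 CPM in TKT cultures and between 154 and 163 CPM in controls, most of it lysozyme (LYZ), and those of erythroid cells were at 0 in the controls and at most 0.0270 CPM in TKT cultures.

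The level was held by few genes. H2BC12 had the highest mean FPKM over the 6 libraries (201), followed by H1-2 (62.0), H2AC6 (28.1) and H2BC5 (22.8). These 4 were also the only members with at least 100 counts in every library, and they held 82.8% of the members' counts. The next were H3C3 with 4.52 FPKM and H2AC20 with 4.47 FPKM. By family, H2B genes held 53.2% of the members' counts, H2A genes 21.7%, H1 genes 18.1%, H3 genes 4.37% and H4 genes 2.62%.

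**Figure D1:**
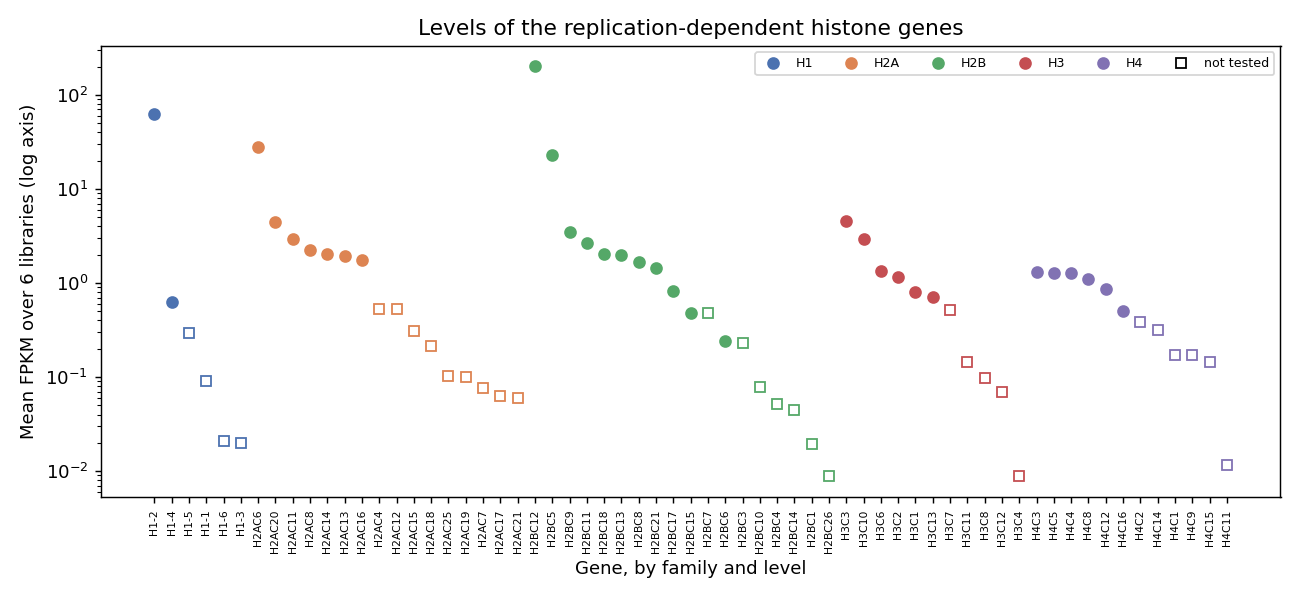
Mean FPKM over the 6 libraries (log axis) for each of the 63 replication-dependent histone genes, ordered by family and level, with filled circles for the 32 tested genes and open squares for the 31 not tested. H2BC12 (201), H1-2 (62.0), H2AC6 (28.1) and H2BC5 (22.8) stand above all others, the highest of which is at 4.52.

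Tested were the 32 members with at least 10 counts in at least 3 libraries, which are 2 H1, 7 H2A, 11 H2B, 6 H3 and 6 H4 genes. Each had 10 counts in at least 1 library of both groups, and 24 had 10 counts in every library. H4C3 and H2BC17 reached 10 counts in 3 TKT cultures and 1 control, and H4C12 in 1 TKT culture and 3 controls. These met the limit mainly through 1 group. The other 31 are described by their counts. Of these, 19 had at most 10 counts in every library, and 6 (H1-5, H2AC12, H2AC4, H2BC7, H4C15 and H4C2) had 10 counts in 2 libraries. Over all members, 24 had at least 1 library at 0.

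The comparison of TKT cultures with controls asks what raised transketolase does to the transcriptome of these cells. Among the replication-dependent histone genes, H2BC21, H2BC5, H2BC12 and H4C3 were higher in the TKT cultures and H2AC14 was lower. Their log2 fold changes ran from −1.40 in H2AC14 to 1.75 in H4C3. The H2B genes, the largest tested family with 11 of 32, made up 3 of the 5. No H1 or H3 gene passed the edgeR test or DESeq2 (0 adjusted, with H1-2 alone at an unadjusted p under 0.05 by both). DESeq2 may have given some low-count members no adjusted p, as for H4C3. At an adjusted p under 0.05 (edgeR quasi-likelihood test, Benjamini-Hochberg over 14309 genes) 4 of 32 members were higher, or 12.5%, against 5.65% of all tested genes. The 1 lower member is 3.12%, against 4.93% of all tested genes. With a log2 fold change past 1 as well, 2 members were higher (H4C3 and, at the limit, H2BC21) against 0.72% of all genes and 1 was lower (H2AC14) against 0.028%. H4C3, in both counts of higher members, met the count limit mainly through the TKT cultures, where it is high. These shares are therefore a description.

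The median log2 fold change of the 32 tested members was 0.0926, with 18 above 0, beside a median of 0.0011 over all tested genes with 50.3% above 0. The median standard error of a member was 0.36 on the log2 scale, and 0.07 over the 4 abundant genes. The cultures of each group did not overlap in 7 members that were higher with TKT (H2AC8, H2BC5, H2BC9, H2BC12, H2BC21, H3C3 and H4C3), or 21.9%, where 14.1% of all tested genes did the same. They did not overlap in 2 members that were lower (H2AC14 and H4C12), or 6.25%, against 13.8% of all tested genes. Of the members named, H4C3 and H4C12 met the count limit mainly through the group where they are high.

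**Figure D2:**
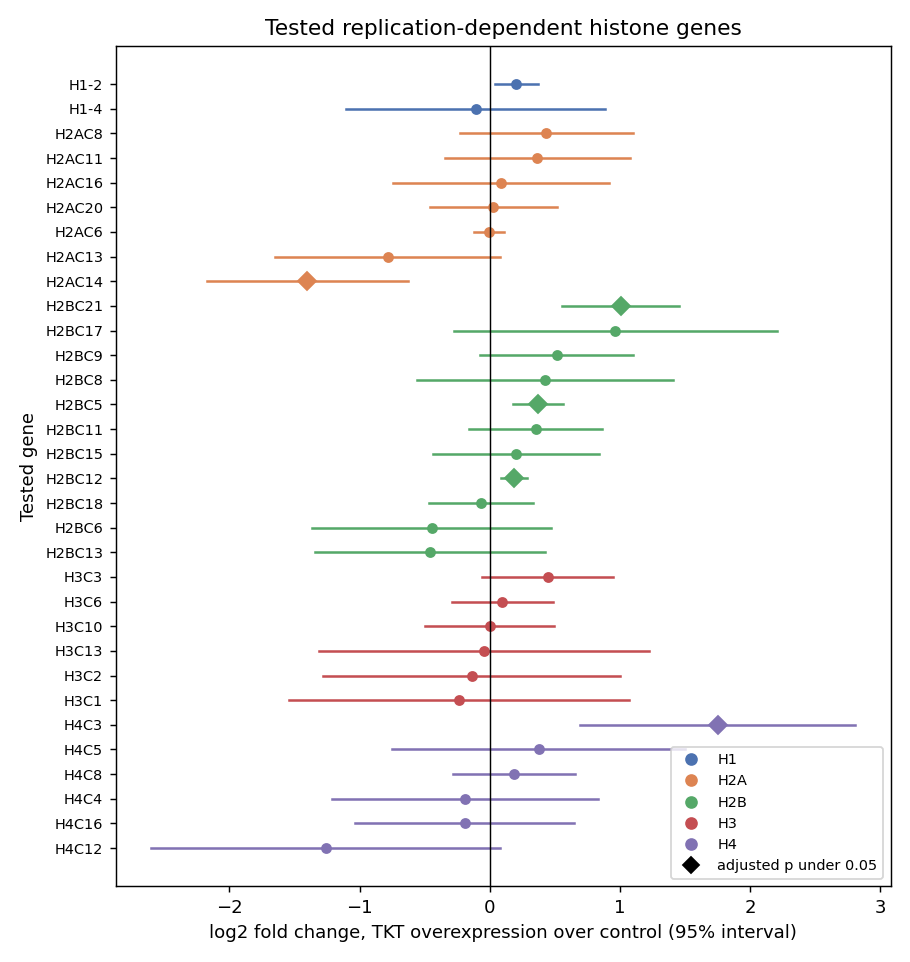
Log2 fold change of TKT overexpression over control (x axis) with its 95% interval (lines) for the 32 tested genes (y axis), coloured by histone family, from the edgeR fit of 3 cultures against 3. Diamonds mark the 5 genes with an adjusted p under 0.05, and the intervals of the low-count H3 and H4 genes are wide while those of H2BC12, H2AC6, H1-2 and H2BC5 are narrow.

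Linker histone H1 binds where DNA enters and leaves the nucleosome. H1-2, its abundant member here, was at 48.9, 55.3 and 42.0 CPM in TKT cultures 1 to 3 and at 42.9, 41.7 and 42.5 CPM in control cultures 1 to 3. TKT culture 3 lay within the range of the controls and the other 2 above it. The log2 fold change was 0.20 (SE 0.08), which missed the threshold after adjustment over all genes (adjusted p = 0.115, edgeR). Without TKT culture 3 it was 0.30 with an adjusted p of 0.00748 (edgeR). This was the most favourable of 17 alternatives. H1-2 was called in 3 of the 17, and its log2 fold change ran from 0.10 to 0.30. H1-4 had 18, 14 and 16 counts with TKT and 16, 14 and 19 in controls, with a log2 fold change of −0.11 (SE 0.48). The other 4 H1 genes (H1-1, H1-3, H1-5 and H1-6) were not tested, and their highest count in any library was 22, in H1-5.

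Histone H2A pairs with H2B in the nucleosome. H2AC14 (chr6:27814302-27814777), the only member called lower, had 16, 16 and 22 counts in TKT cultures 1 to 3 and 40, 39 and 58 in control cultures 1 to 3. All 3 TKT cultures lay below all 3 controls. Its level was 0.540 ± 0.120 CPM with TKT and 1.43 ± 0.260 CPM in controls (SD, n = 3), a log2 fold change of −1.40 (SE 0.37) and an adjusted p of 0.0176 (edgeR). The call was lost without TKT culture 1 (adjusted p = 0.0764, edgeR) and without control culture 3 (adjusted p = 0.0919, edgeR). Over 17 alternatives the log2 fold change of H2AC14 ran from −1.59 to −0.90. The promoter window of H2AC14 is much like that of H2AC13, and the treatment of reads with several matches is not given. The count of H2AC14 may therefore include reads shared with similar genes.

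H2AC6, the abundant H2A gene, was at 44.5, 48.2 and 47.9 CPM with TKT and at 46.0, 48.6 and 46.6 CPM in controls. The ranges of the groups overlapped, with TKT culture 1 the lowest and control culture 2 the highest of the 6. The log2 fold change was −0.01 with a 95% interval of −0.12 to 0.11, and its sign turned with upper-quartile scaling. H2AC20 had 80, 79 and 66 counts with TKT and 60, 69 and 81 in controls (0.03, SE 0.23), and H2AC11 had 51, 57 and 56 against 66, 24 and 31 (0.37, SE 0.34). In neither gene did the groups separate. The other 3 tested H2A genes had log2 fold changes of −0.78 (H2AC13), 0.09 (H2AC16) and 0.43 (H2AC8), and none passed the test. The 55.6 ± 3.03 CPM summed over all H2A genes with TKT stood beside 55.8 ± 1.05 CPM in controls.

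H2B was the family with the most called members, 3 of 11 tested, and also the family with the most tested members. H2BC21 (chr1:149884459-149886682) had 150, 166 and 115 counts in TKT cultures 1 to 3 and 60, 74 and 70 in control cultures 1 to 3. The lowest TKT culture was above the highest control. The level was 4.31 ± 0.969 CPM with TKT and 2.14 ± 0.268 CPM in controls (SD, n = 3). This is a log2 fold change of 1.00 (SE 0.21, 95% interval 0.56 to 1.45) with an adjusted p of 0.00368 (edgeR). The gene kept an adjusted p under 0.05 in all 17 alternatives that were run, between 0.000234 and 0.0371.

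H2BC5 (chr6:26158121-26171349) was at 20.8, 24.3 and 21.6 CPM with TKT and at 17.1, 15.8 and 18.7 CPM in controls, again without overlap. The log2 fold change was 0.37 (SE 0.09) with an adjusted p of 0.0128 (edgeR), and without TKT culture 2 the adjusted p was 0.0641. H2BC12 (chr6:27138293-27146858), at 109, 103 and 107 CPM with TKT and 95.6, 90.9 and 93.1 CPM in controls, differed by less in proportion. Its log2 fold change was 0.19 (SE 0.05) with an adjusted p of 0.0141 (edgeR), and without TKT culture 1 the adjusted p was 0.0930. H2BC5 overlaps H2BC6-AS1 and LARP1P1 in the annotation and the annotated span of H2BC12 holds H4C9, so reads of such neighbours may be shared. H4C9 had 1 to 4 counts per library, and H2BC12 was counted over 497 bases.

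The other 8 tested H2B genes did not pass the test. H2BC9 had 69, 61 and 61 counts with TKT and 52, 42 and 32 in controls, with no overlap but a log2 fold change of 0.51 (SE 0.28). The 7 others ran from −0.46 in H2BC13 to 0.96 in H2BC17. Among the H2B genes below the count limit, H2BC7 had 14, 8 and 15 counts with TKT and 2, 4 and 2 in controls. Summed over all 18 H2B genes the level was 147 ± 0.842 CPM with TKT and 125 ± 4.11 CPM in controls (SD, n = 3), and most of it was H2BC12.

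**Figure D3:**
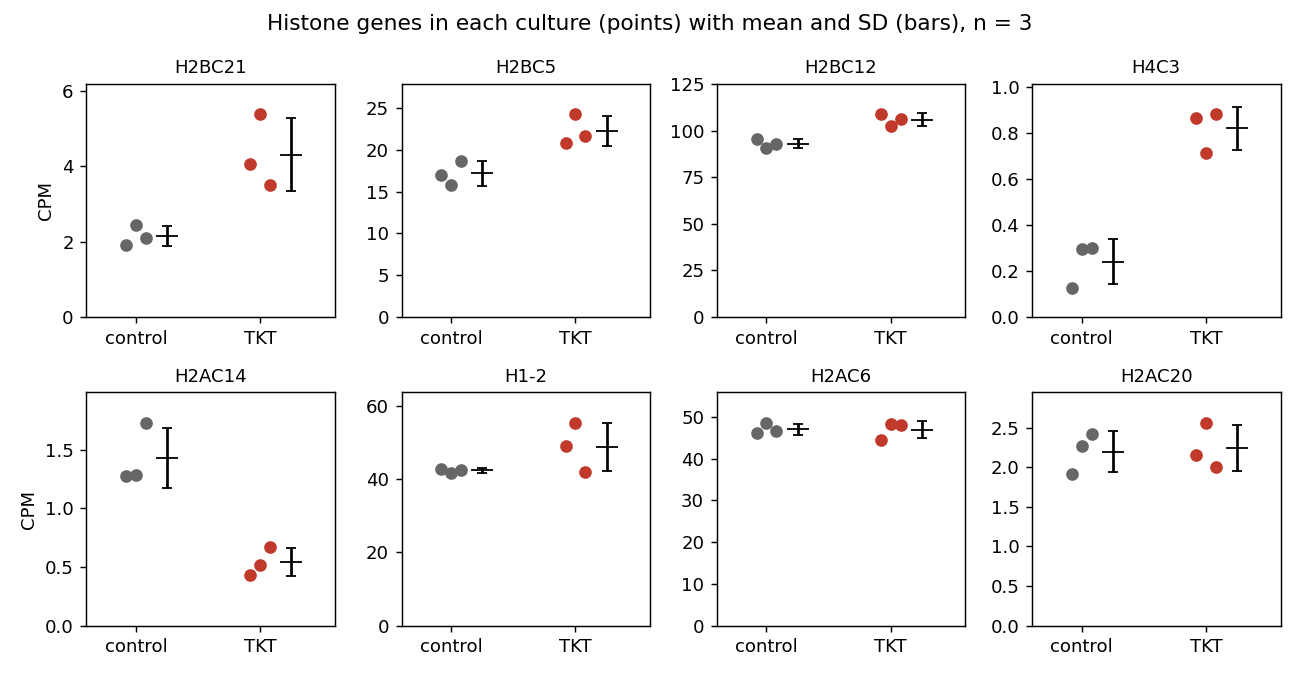
CPM (y axis, from 0) in each of the 3 control and 3 TKT cultures (points) with mean and SD (bars) for 8 histone genes. The TKT cultures lie above the controls in H2BC21, H2BC5, H2BC12 and H4C3 and below them in H2AC14, and the groups overlap in H1-2, H2AC6 and H2AC20.

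H3 and H4 form the inner tetramer of the nucleosome. With edgeR and with DESeq2, 0 of 6 tested H3 genes passed the test and 0 had an unadjusted p under 0.05. DESeq2 gave no adjusted p to the low-count H4C3, so its 0 may not cover every low-count H3 gene. With limma on log2(FPKM + 1) and on log2(FPKM + 0.1), 2 of 9 H3 genes were higher at an unadjusted p under 0.05 and 0 passed. H3C3 had 83, 100 and 71 counts with TKT and 64, 54 and 60 in controls, without overlap (log2 fold change 0.44, SE 0.24, adjusted p = 0.288, edgeR). H3C10 ranged from 101 to 155 counts with TKT and from 75 to 150 in controls, with a fold of 1.00 and a 95% interval of −0.49 to 0.49 on the log2 scale. H3C6 was at 133, 122 and 116 counts with TKT and at 116, 98 and 115 in controls, with a log2 fold change of 0.10 (SE 0.19). H3C1, H3C2 and H3C13 lay between −0.24 and −0.05, each with a standard error above 0.5. All 11 H3 genes summed to 11.6 ± 2.39 CPM with TKT and 10.9 ± 1.63 CPM in controls.

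H4C3 (chr6:26103933-26104337) had the highest log2 fold change among the tested members. It had 32, 22 and 29 counts in TKT cultures 1 to 3 and 4, 9 and 10 in control cultures 1 to 3, so that the groups did not overlap. The level was 0.819 ± 0.0924 CPM with TKT and 0.241 ± 0.0981 CPM in controls (SD, n = 3), a log2 fold change of 1.75 (SE 0.51) with an adjusted p of 0.0293 (edgeR). The gene reached 10 counts in 3 TKT cultures and 1 control, so the cultures where it is high met the count limit alone. At these counts the call was fragile. The adjusted p was 0.101 without TKT culture 1, 0.0867 without TKT culture 3, 0.123 without control culture 1 and 0.0510 without control culture 3, and DESeq2 gave no adjusted p.

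The other 5 tested H4 genes did not pass the test. H4C5 had 32, 5 and 25 counts with TKT and 13, 17 and 14 in controls, with TKT culture 2 below all controls and the other 2 above them (0.38, SE 0.54). H4C4 had 23, 12 and 14 counts with TKT and 16, 23 and 13 in controls (−0.19, SE 0.49). H4C12 was the lowest of the family at −1.26 (SE 0.65), with 10, 8 and 2 counts against 10, 12 and 24. In H4C14, below the count limit, TKT culture 3 had 82 counts and the 5 other libraries had 6 to 9. H4C14 and H4C15 are near-identical copies, as are H2AC18 and H2AC19, so their counts are uncertain. The promoter windows of H4C12 and H4C11 are also much alike, so the count of H4C12 may share this doubt. The sum of all H4 genes was 6.58, 5.83 and 9.42 CPM in TKT cultures 1 to 3 and 6.30, 6.16 and 5.93 CPM in control cultures 1 to 3, with the H4C14 counts of TKT culture 3 included.

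Summed over all 63 members, the level was 267, 281 and 266 CPM in TKT cultures 1 to 3 and 246, 235 and 242 CPM in control cultures 1 to 3. Every TKT culture lay above every control, and the log2 ratio of the means was 0.17. The ratio was 0.16 without H2BC12 and 0.19 without the 4 most abundant members, the second of these chosen after seeing the data. The other 59 members summed to 43.1, 50.7 and 47.6 CPM with TKT and to 44.2, 38.5 and 41.2 CPM in controls, so that without the 4 most abundant genes the groups overlapped. On chromosome 6, where the large histone clusters lie, 51 members summed to 258 ± 9.28 CPM with TKT and 231 ± 5.15 CPM in controls. The 12 members elsewhere summed to 13.5 ± 1.27 and 10.6 ± 0.491 CPM, which includes H2BC21 and the H4C14 counts of TKT culture 3. The median log2 fold change of the 5 tested among them was −0.05.

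Many H2A and H2B genes stand head to head, with their starts close enough to share a promoter. Among members with a promoter window, 12 divergent pairs of any family had starts within 1000 bases of each other. Of these, H2BC7 with H3C4 and H2BC9 with H3C7 pair an H2B with an H3 gene. H3C4 has the same window as H2AC7, so H2BC7 is counted with both. In 4 pairs, each of an H2A and an H2B gene, both genes were tested. H2BC21 and H2AC20 start 236 bases apart, and the window of H2BC21 printed above overlaps that of H2AC20. H2BC21 was higher with TKT, with a log2 fold change of 1.00, while that of H2AC20 was 0.03. The log2 ratio of H2BC21 to H2AC20 counts (0.5 added to each) was 0.90, 1.07 and 0.80 in TKT cultures 1 to 3 and 0.00, 0.10 and −0.21 in control cultures 1 to 3. The ratio was higher in all 3 TKT cultures than in any control, by 0.96. The exact two-sided permutation test gave p = 0.1, the smallest possible with 3 against 3, or 0.4 after adjustment over the 4 pairs. H2BC21 was part of the reason to look at this ratio, so the value is a description.

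In the 3 other pairs both genes had log2 fold changes of the same sign, and their ratios overlapped between the groups. These were 0.37 and 0.35 for H2AC11 and H2BC11, −0.78 and −0.46 for H2AC13 and H2BC13, and 0.43 and 0.42 for H2AC8 and H2BC8. None of these 6 genes passed the test.

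Genes that act on histone mRNA and histones were read from lists. Of 24 tested genes for transcription and 3' processing of histone mRNA, 2 were higher and 2 lower, with a median log2 fold change of 0.01, where 5.65% of all tested genes were higher and 4.93% lower. SLBP was at 122 ± 2.41 CPM with TKT and 135 ± 6.38 CPM in controls (−0.14, SE 0.05, adjusted p = 0.0499, edgeR) and kept its call in 5 of 17 alternatives. Its adjusted p (edgeR) was between 0.0592 and 0.187 without TKT culture 1, 2 or 3 or without control culture 2 or 3. CDK2, a kinase that drives S phase entry, fell by 0.28 (adjusted p = 0.00174, edgeR) and kept its call in 17 of 17. ZNF473, a zinc finger protein of the U7 complex, was higher by 0.29 (adjusted p = 0.0197, edgeR), and SYMPK, a scaffold of the cleavage machinery, by 0.13 (adjusted p = 0.0487, edgeR). ZNF473 kept its call in 11 of 17 alternatives and had an adjusted p of 0.0886 without TKT culture 2, 0.0608 without TKT culture 3 and 0.0849 without control culture 3 (edgeR). SYMPK kept its call in 9 of 17, with an adjusted p between 0.0612 and 0.182 without TKT culture 1, 2 or 3 or without control culture 1 or 2 (edgeR). NPAT, which activates histone gene transcription, had −0.07 (SE 0.10). Of 13 genes of histone mRNA decay, 0 passed the test with edgeR or DESeq2 and 2 had an unadjusted p under 0.05 with either, with a median log2 fold change of 0.04.

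Variant histones are mostly made throughout the cell cycle from polyadenylated mRNAs, and 12 were tested. H2AX, which marks DNA breaks once phosphorylated and is known to give a stem-loop mRNA as well as a polyadenylated one, fell from 239 ± 6.67 to 200 ± 4.77 CPM (log2 fold change −0.26, SE 0.04, adjusted p = 1.14e-04, edgeR). H1-10 had 1491, 1117 and 1230 counts with TKT and 1573, 1443 and 1384 in controls (−0.29, SE 0.07, adjusted p = 0.00994, edgeR), and without control culture 1 its adjusted p was 0.0780. The other 10 did not pass the test, H2AZ1 (−0.09, SE 0.04) and H3-3B (0.02, SE 0.03) among them, and the median of the list was −0.06. Of 25 tested histone chaperones and associated factors, SPTY2D1 was higher (0.25). The H3 and H4 chaperone NASP (−0.16) and MMS22L (−0.24) were lower. Over all tested genes the shares were the same 5.65% higher and 4.93% lower. SPTY2D1 and NASP kept their calls in 17 of 17 alternatives. MMS22L (adjusted p = 0.0259, edgeR) kept its call in 9 of 17, with an adjusted p between 0.0508 and 0.115 without TKT culture 1, 2 or 3 or without control culture 2 or 3 (edgeR). In the histone acetyltransferase gene HAT1, control culture 3 had 751 counts and the 5 other libraries 1 to 25 (adjusted p = 0.321, edgeR).

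Of 24 tested S phase markers, 12 were lower at an adjusted p under 0.05 and 0 were higher (edgeR, 0 also at an unadjusted p under 0.05 and by DESeq2 and limma), against 4.93% of all tested genes that were lower. The median log2 fold change of the list was −0.13. RRM2, a subunit of ribonucleotide reductase, fell by 0.28 on the log2 scale (adjusted p = 1.08e-05, edgeR), and the sliding clamp PCNA by 0.16 (adjusted p = 0.0216, edgeR). The replicative helicase subunits MCM3, MCM4, MCM5, MCM6 and MCM7 fell by 0.11 to 0.21. CCNA2, E2F1, UHRF1, POLA1 and MKI67 were the other lower genes, by 0.15 to 0.20. Of these, MKI67 is not particular to S phase. The count of 12 fell to 4 without TKT culture 1, 7 without TKT culture 3 and 4 without control culture 1. Fits with a culture left out also have fewer samples. In bulk cultures, fewer cells in S phase and less of these mRNAs per cell cannot be told apart. The part of S phase in the histone levels was not tested. MYC was at 123 ± 0.700 CPM with TKT and 106 ± 5.21 CPM in controls (0.21, SE 0.05, adjusted p = 0.00531, edgeR).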

How the data were processed

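RNA was extracted from 6 cultures with TRIzol and sequenced as 150-bp paired-end reads on an Illumina NovaSeq instrument. The authors trimmed reads with fastp 0.22.0 and aligned them with HISAT2 2.1.0 to hg38, per the labels, and counted them with featureCounts. They deposited raw counts per gene and FPKM. The RNA selection, the strand setting, the annotation and the treatment of reads with several matches are not given in the sources used here. Of counts between 1 and 20, 60.8% to 63.6% were even, and whether mates or pairs were counted is not given. No column of per-sample values was left unused.

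Genes with at least 10 counts in at least 3 libraries were tested with edgeR 4.0.16 in R 4.3.3 (TMM, trended dispersion, robust quasi-likelihood test, two-sided) on the 3 TKT and 3 control cultures, with Benjamini-Hochberg adjustment and a threshold of 0.05. The common biological coefficient of variation was 0.113. The study's second threshold, an absolute log2 fold change over 1, was added. Alternatives were DESeq2 1.42.0, limma 3.58.1 on log2(FPKM + 1) and log2(FPKM + 0.1), other scalings and filters, leaving out each culture, a block for the replicate number and a GC content and length trend removed.

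The members, lists and tests were chosen with earlier results of these data known. Named are called members, the 3 with the highest mean FPKM in each family, called genes of the lists with the gene of the highest mean FPKM in each, TKT and MYC. Not all of them were needed. Others, the divergent pairs included, were chosen after their values were seen. Coordinates come from RefSeq (GRCh38.p14) for genes and promoters and GENCODE 29 for stem-loops.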

Additional observations from a re-analysis of the deposited data

How the results depend on the processing

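H2BC21 kept its call in 17 of 17 alternatives. The count of higher members (4) ranged from 2 to 4 with a culture left out, that of lower members (1) from 0 to 1 and that past both thresholds (3) from 0 to 3. The S phase count of 12 ranged from 4 to 12 and the 21 called genes of all 5 lists, S phase included, from 10 to 21. With limma on log2(FPKM + 1) and log2(FPKM + 0.1), the 5 lists held 9 and 10 called genes, of which S phase 5 and 6, and with the first no member passed both thresholds (0). The median log2 fold change of the members was 0.20 with no filter on low counts, which brings in low genes, and 0.19 with log2(FPKM + 0.1). With no filter 6 members were higher.

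Same-numbered cultures did not deviate together (correlations of 0.0027, −0.021 and 0.017, with 1 of 3 best with its own number), so no pairing by number was seen. With 3 cultures per group this cannot exclude shared handling of same-numbered cultures. With the replicate block 1 member was higher, 0 were lower and 0 passed both thresholds, with 7 called genes in the 5 lists, 2 of them in S phase.

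Signs turned where values were near 0. H2AC6 was at 0.0077 with upper-quartile factors and between −0.026 and 0.031 with a culture left out. H3C10 was at 1.1e-05 with RLE factors, 0.013 with upper-quartile factors, 0.0045 with total counts, 5.2e-05 with the edgeR default filter, 0.0018 with no filter, 0.0041 with 10 counts in every library, 0.0078 and 0.012 with limma on FPKM, and −0.29 to 0.23 with a culture left out. With a culture left out, H2AC20 ran from −0.078 to 0.099 and H4C4 from −0.43 to 0.10. The cause was not tested. The 31 members not tested had too few counts for the filter.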
